A study of Mus musculus with 6 samples.

Results

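The 10 genes described here encode transcription factors that steer blood progenitors towards the granulocyte or the monocyte fate and that lie outside the C/EBP, IRF and KLF families. They are Gfi1, Spi1, Runx1, Myb, Etv6, Bcl6, Zeb2, Cux1, Lmo4 and Pou2f2, and every probe whose platform symbol or synonym is one of these names was taken. All 10 genes were found, on 22 of the 45281 probes of the array, and 20 of the 22 probes were bright enough to pass the filter on dim probes described with the processing. Each gene is represented by its brightest probe, so the 10 genes are 10 of the 15440 features tested. Total RNA came from mouse bone marrow cells sorted by the surface antigen Ly6C and was hybridised to Illumina bead arrays, with 1 array for each sample. The Ly6C low sort is labelled granulocytic progenitors (GP, n = 3), and the Ly6C high sort is labelled monocyte-like precursors of granulocytes (MLPG, n = 3). Of the mice themselves, the labels give no strain, genotype, age, tumour status or treatment. No label ties a replicate to an animal of its own, so p-values cover the spread of these samples alone, part of which may be technical. Where 3 values are listed for a group, they are those of arrays 1, 2 and 3 in that order.

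Granulocytes and monocytes share a bone marrow progenitor, and the choice between them is made by factors that activate one programme while they silence the other. PU.1, the product of Spi1, binds DNA through an ETS domain and is needed for both lineages, with high activity favouring monocytes. Gfi1 is a zinc finger repressor that shuts down monocyte genes such as Csf1r and is required for neutrophil formation. Runx1 acts with its partner Cbfb in early myeloid cells, Myb keeps progenitors dividing, and Zeb2 and Bcl6 are zinc finger repressors of later stages.

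The comparison of MLPG with GP asks how these regulators differ between the Ly6C high and the Ly6C low precursors. Bcl6 was lower on all 3 MLPG arrays than on any GP array, Pou2f2 was higher on all 3, and Zeb2 was higher in MLPG on average with an overlap made by 1 GP array. In the other 7 genes the groups overlapped and the log2 difference, MLPG minus GP, lay between -0.25 and 0.18. None of the 10 passed the test over all features in limma at a Benjamini-Hochberg adjusted p under 0.05 (0 of 10), a call made for 0.512% of the 15440 features. Without adjustment 3 of 10 members had a p under 0.05 (limma), against 14.7% of all features. The groups did not overlap in 2 of 10, against 20.4% of all features (10.7% with MLPG above GP and 9.66% with MLPG below), a share near the background. Same-numbered GP and MLPG arrays deviated together, and adding the replicate number to the model as a block called 2 of the 10 members, Bcl6 and Pou2f2, against 4.08% of all features. The block without replicate number 3 called 0 members (limma, where 3 had an unadjusted p under 0.05) and 6 of all features. The share of all features under the unadjusted threshold was not taken in that fit. The median difference of the 10 members was -0.03, beside 0.01 over all features.

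**Figure D1:**
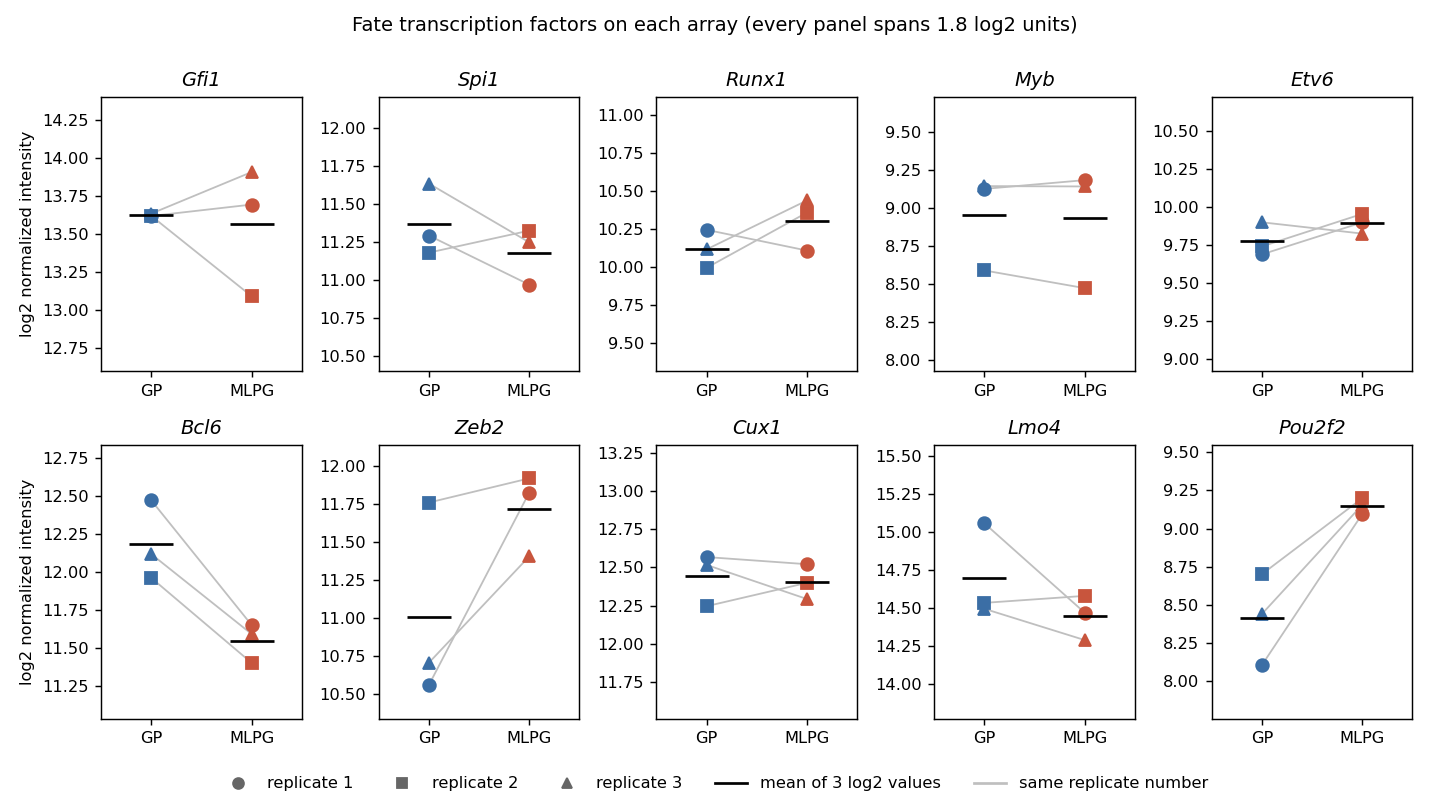
Log2 normalized intensity of the probe that stands for each of the 10 genes, in the 3 GP arrays (blue) and the 3 MLPG arrays (red), 1 panel per gene; symbols mark the replicate number, grey lines join arrays of the same number and black bars are the means of 3 log2 values. Bcl6 and Pou2f2 are the 2 genes whose groups do not overlap, at 3982 to 5668 against 2703 to 3212 and at 275 to 416 against 547 to 588 in linear intensity, and in Zeb2 the square of GP 2 lies among the MLPG values.

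Zeb2 and Pou2f2 had the largest differences above 0 of the 10 members, and neither passed the test without the block. Zeb2, a zinc finger and homeobox repressor that takes part in the formation of monocytes and of plasmacytoid dendritic cells, was at normalized intensities of 1510, 3465 and 1671 in GP and at 3627, 3869 and 2712 in MLPG. Array GP 2 therefore lay above MLPG 3 and just below MLPG 1, while GP 1 and GP 3 lay below all MLPG arrays. The mean difference was 0.71 on the log2 scale, 1.63-fold higher in MLPG (standard error 0.30, 95% interval 0.02 to 1.40, adjusted p = 0.33, limma). Within the replicate numbers the difference was 1.26 for number 1, 0.16 for number 2 and 0.70 for number 3, and with the block the adjusted p was 0.078 (limma). Without array GP 2 the difference was 1.08 and passed the test (adjusted p = 0.027, limma), and without GP 1 it was 0.48 (adjusted p = 0.61, limma). The fit without GP 2 called 348 of all features, against 79 with all 6 arrays.

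Zeb2 had 5 probes. The second probe was at 487, 589 and 460 in GP and at 901, 761 and 554 in MLPG, a log2 difference of 0.51 with an overlap between GP 2 and MLPG 3. The third was at 348, 520 and 405 in GP and at 678, 579 and 551 in MLPG, a difference of 0.52 with no overlap between the groups. The 2 remaining probes, at 143 and 125 on average in GP and at 136 and 130 in MLPG, lay below the filter and differed by -0.07 and 0.06. The 3 brighter probes thus moved the same way, and in each of them GP 2 was the highest GP array. Fitted over all 45281 probes with the block, 2 of the 5 Zeb2 probes were called in limma (adjusted p = 0.036 for the first and 0.044 for the second), a call made for 2.73% of all probes, and without the block 0 of the 5 were, against 0.426% of all probes. At an unadjusted p under 0.05 (limma, every probe), 3 of the 5 were counted. The share of all probes at that threshold was not taken, and probes of the same gene on the same arrays are not independent.

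Pou2f2 encodes Oct-2, a POU domain factor best known from B cells that is also present in myeloid cells. Its single probe was at 275, 416 and 347 in GP and at 547, 588 and 570 in MLPG. The MLPG arrays lay close together, with a standard deviation of 0.05 on the log2 scale against 0.30 in GP, and the highest GP array was again GP 2. The log2 difference was 0.74, 1.67-fold higher in MLPG (standard error 0.15, 95% interval 0.40 to 1.07, adjusted p = 0.086, limma). With the block it passed the test (adjusted p = 0.016, limma), and the differences within numbers 1, 2 and 3 were 0.99, 0.50 and 0.72. Without array GP 2 it was 0.88 and passed the test without a block (adjusted p = 0.021, limma). In the block without number 3 it was 0.75 and did not pass (adjusted p = 0.22, limma).

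The promoters of these genes, 250 bases before to 50 after an annotated start in RefSeq on GRCm38.p6, were available for 9 of the 10 genes in 17 windows. Both strands were searched for AGGAAGT, bound by PU.1 and other ETS factors, TGTGGT, bound by RUNX factors, AAATCAC, bound by Gfi1, CAACNG, bound by Myb, CACCTG, bound by Zeb2 and other E-box factors, the octamer ATGCAAAT, bound by Pou2f2, and TTCCTNGAA, bound by Bcl6 and STAT factors. The PU.1, Gfi1 and octamer motifs were in 0 of the 17 windows each, beside 9.35%, 3.2% and 1.74% of all 32851 promoter windows. The windows held TGTGGT in 2 of 17 (Pou2f2 and Runx1; 16.8% of all windows), CAACNG in 4 (Cux1, Pou2f2, Runx1 and Zeb2; 35.0%), CACCTG in 2 (Gfi1 and Runx1; 20.2%) and TTCCTNGAA in 2 (Bcl6 and Etv6; 1.59%). A match says only that the letters are present. The 3 sequences shown belong to the 3 genes with an unadjusted p under 0.05, each on the minus strand and printed 5′ to 3′, with capitals for any match to a searched motif. Some of the 17 windows overlap each other, in Zeb2 and in Lmo4. The Zeb2 sequence is the most upstream of 4 windows, chr2:45117393-45117692, with 1 CAACNG match, and the other Zeb2 windows held no match. The Pou2f2 sequence is its only window, chr7:25132411-25132710, with 1 TGTGGT and 1 CAACNG match. The Bcl6 sequence is its second window, chr16:23981234-23981533, chosen because it holds the TTCCTNGAA match.
Zeb2: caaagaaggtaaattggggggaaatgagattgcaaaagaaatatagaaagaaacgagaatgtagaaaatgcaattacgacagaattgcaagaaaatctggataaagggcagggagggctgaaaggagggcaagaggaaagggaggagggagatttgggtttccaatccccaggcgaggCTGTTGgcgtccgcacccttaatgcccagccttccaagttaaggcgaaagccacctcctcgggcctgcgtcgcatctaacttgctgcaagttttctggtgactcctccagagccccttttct
Pou2f2: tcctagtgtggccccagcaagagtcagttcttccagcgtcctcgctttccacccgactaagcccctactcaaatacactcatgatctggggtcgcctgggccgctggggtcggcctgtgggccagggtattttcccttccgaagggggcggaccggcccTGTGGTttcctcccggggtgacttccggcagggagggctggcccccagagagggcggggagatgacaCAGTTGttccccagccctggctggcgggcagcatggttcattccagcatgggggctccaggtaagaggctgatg
Bcl6: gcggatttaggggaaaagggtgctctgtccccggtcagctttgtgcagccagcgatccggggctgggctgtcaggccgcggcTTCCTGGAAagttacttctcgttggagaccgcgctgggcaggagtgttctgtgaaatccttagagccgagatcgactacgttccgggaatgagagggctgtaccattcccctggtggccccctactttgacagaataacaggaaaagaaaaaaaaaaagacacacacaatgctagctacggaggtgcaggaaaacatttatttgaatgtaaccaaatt

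Bcl6 and Gfi1 are repressors tied to the granulocyte side. Bcl6, a BTB zinc finger repressor that is abundant in neutrophils, was at 5668, 3982 and 4437 in GP and at 3212, 2703 and 3083 in MLPG. Its lowest GP array, GP 2, lay above its highest MLPG array, MLPG 1. The log2 difference was -0.63, 1.55-fold higher in GP (standard error 0.14, 95% interval -0.96 to -0.31, adjusted p = 0.12, limma). With the block it passed the test (adjusted p = 0.016, limma), with differences of -0.82, -0.56 and -0.53 within numbers 1, 2 and 3. Without array GP 2 the difference was -0.75 and passed the test without a block (adjusted p = 0.046, limma). In the block without number 3 it was -0.69 and did not pass (adjusted p = 0.19, limma).

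Gfi1 was at 12572, 12576 and 12709 in GP and at 13243, 8724 and 15356 in MLPG. The GP arrays were nearly equal, with a log2 standard deviation of 0.009, whereas the MLPG arrays spread on both sides of them with a standard deviation of 0.42. Over all features the median of that standard deviation was 0.14 in GP and 0.11 in MLPG, so Gfi1 lay below the median spread in GP and above it in MLPG. The mean difference of -0.06 (95% interval -0.50 to 0.38, adjusted p = 0.92, limma) became 0.18 without array MLPG 2 (adjusted p = 0.57, limma). Array MLPG 2, the lowest in Gfi1, also had the highest sum of handling stress genes, 77637 against 51034 to 66334 on the other 5 arrays. Fos made up 41.9% to 58.3% of these sums and Egr1 14.0% to 32.8%. Fos, Jun, Atf3 and Dnajb1 were highest on MLPG 2, but Egr1 was highest on GP 2 and Hspa1a and Hspa1b on MLPG 3. Egr1 is also on the list of genes repressed by Gfi1 given later. The part of handling stress in the Gfi1 value was not tested.

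Spi1, Runx1 and Etv6 belong to the core set shared by both lineages. Spi1, which encodes PU.1, was at 2509, 2321 and 3179 in GP and at 2006, 2566 and 2432 in MLPG. The groups overlapped, with GP 3 the highest and MLPG 1 the lowest array, and the log2 difference was -0.19 (95% interval -0.52 to 0.15, adjusted p = 0.61, limma). Runx1 was at 1211, 1019 and 1108 in GP and at 1102, 1310 and 1385 in MLPG on its brighter probe, a difference of 0.18 (95% interval -0.09 to 0.45, adjusted p = 0.52, limma).

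The dimmer Runx1 probe was at 288, 262 and 253 in GP and at 307, 314 and 301 in MLPG. Its groups did not overlap, its difference was 0.20, close to that of the brighter probe, and it was not called over all probes (adjusted p = 0.47, limma). Etv6, an ETS family repressor needed by blood stem cells, was at 825, 856 and 955 in GP and at 955, 992 and 907 in MLPG. It varied least among the 10 genes, by 0.27 on the log2 scale from the lowest to the highest array, and differed by 0.12 (95% interval -0.10 to 0.33, adjusted p = 0.62, limma).

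Myb, Lmo4 and Cux1 are broadly acting factors of dividing or immature cells. Myb was at 558, 385 and 565 in GP and at 580, 355 and 564 in MLPG on its brightest probe. The number 2 array was low in both groups, and within numbers 1, 2 and 3 the differences were 0.06, -0.12 and -0.002. The overall difference of -0.02 had a 95% interval of -0.53 to 0.49 without the block and of -0.23 to 0.19 with it (adjusted p = 0.98 and 0.93, limma). The second Myb probe was at 280, 248 and 258 in GP and at 280, 279 and 329 in MLPG, a difference of 0.17, and the third, at 176, 201 and 176 and at 193, 182 and 165, lay close to the median of all probes, 179.3. On the second probe GP 2 was again the lowest GP array, by less, and on the third it was the highest.

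Lmo4, a LIM domain adaptor that joins other factors to the cofactor Ldb1, was at 34063, 23700 and 23070 in GP and at 22668, 24465 and 20008 in MLPG on its brighter probe. Array GP 1 stood above the other 5, the groups overlapped, and the difference of -0.25 (95% interval -0.62 to 0.12, adjusted p = 0.53, limma) was -0.07 without GP 1 (adjusted p = 0.88, limma). The dimmer Lmo4 probe, at 2223, 1934 and 1806 in GP and at 1615, 2621 and 1413 in MLPG, differed by -0.13, with MLPG 2 its highest array. Cux1, a homeobox factor of the CUT family, was at 6074, 4856 and 5860 in GP and at 5879, 5401 and 5017 in MLPG on the brightest of 5 probes, a difference of -0.04 (95% interval -0.30 to 0.23, adjusted p = 0.92, limma). The other 4 Cux1 probes differed by between -0.20 and 0.07, and in the one at -0.20 the groups did not overlap, with GP at 367, 366 and 378 and MLPG at 349, 312 and 308 (adjusted p = 0.49 over all probes, limma).

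Over all 22 probes, 11 lay above 0 and 11 below, and the groups did not overlap in 5, against 15% of all probes. Of the 22, 20 lay above the filter, and the share was 20.4% over the 15440 features above the filter. In genes with several probes above the filter, the 3 of Zeb2, the 2 of Runx1 and the 2 of Lmo4 shared a sign, while those of Myb and Cux1 did not and lay between -0.20 and 0.17. Bcl6, Pou2f2, Gfi1, Spi1 and Etv6 had 1 probe each, so no second probe could be set beside them.

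**Figure D2:**
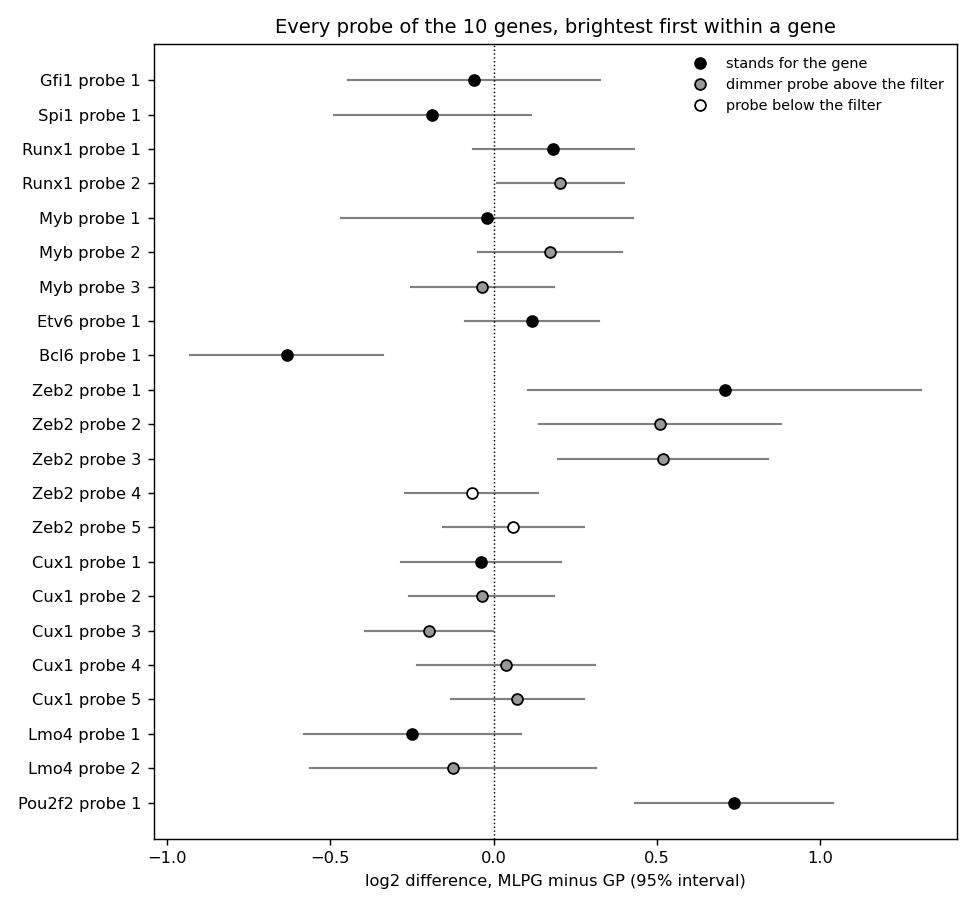
Log2 difference, MLPG minus GP, of each of the 22 probes with its 95% interval from limma, 1 row per probe, brightest first within a gene; black points stand for the gene, grey points are dimmer probes and open points lie below the filter on dim probes. Bcl6 (-0.63) and Pou2f2 (0.74) lie farthest from 0 of the genes with 1 probe, and the 3 brighter Zeb2 probes (0.71, 0.51 and 0.52) lie together while its 2 open points sit near 0.

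Marker lists of marrow cell types were summed on the same arrays over every listed gene with a probe, and in bulk samples fewer cells of a type and less RNA per cell cannot be told apart. The labelled cells carried neutrophil precursor genes in both groups, with all 10 listed genes above the filter and summed intensities of 621939 to 642495 in GP and 594715 to 623653 in MLPG. Most of these genes lay near the highest intensity of the arrays, 71674, which Lcn2 reached on GP 1 and GP 2. Similar sums near that limit therefore do not show similar content. Of the 10, 3 lay above 0 and 7 below, and the largest differences were those of Camp (-0.29) and Cebpe (-0.25). Monocyte markers, 12 of 12 above the filter, summed to 47945, 74398 and 54201 on GP arrays 1 to 3 and to 114067, 100621 and 99141 on MLPG arrays 1 to 3, and all 12 differences were above 0. Ly6c1, a gene of the sort antigen, made up 42.8% to 73.8% of these sums, at 35394, 40412 and 31550 in GP and 53055, 43067 and 46621 in MLPG. Array GP 2 had the highest monocyte sum in GP, as it had the highest Zeb2 and Pou2f2 and the lowest Bcl6 in GP. Mature neutrophil markers, 8 of 10 above the filter, summed to 122270, 78806 and 111859 in GP and to between 31197 and 43361 in MLPG, again with GP 2 nearest to MLPG.

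Eosinophil markers, 7 of 11 above the filter and with Siglecf and Ccr3 below it, summed to 56916, 133806 and 120023 in GP and to between 4884 and 8014 in MLPG. Basophil and mast cell markers, 8 of 8 above the filter, summed to between 30181 and 43530 in GP and between 17239 and 26629 in MLPG. Hdc, which encodes histidine decarboxylase, made up 84.8% to 92.7% of that sum on each array. All 8 genes lay below 0, and 1 was called lower, Gata2 (limma), against 0.369% of all features. With the block 5 were lower, Cpa3, Fcer1a, Gata2, Hdc and Prss34, against 2.59% of all features. Mcpt8, a basophil protease gene, and Ms4a2 overlapped between the groups. Zeb2 and Pou2f2 are also genes of dendritic and B cells. Dendritic cell markers, 4 of 8 above the filter and with Ccr9, Cd209a, Flt3 and Itgax below it, summed to 3389, 5479 and 3619 in GP and to between 4079 and 4880 in MLPG, with GP 2 the highest of the 6 arrays. Tcf4 made up 49.5% to 64.1% of these sums. Of the 4 measured genes, 2 lay above 0 and 2 below. With the block 1 was lower, Siglech, at -0.65 (adjusted p = 0.25, and 0.024 with the block, limma), against 2.59% of all features. B cell markers, 4 of 8 above the filter and with Ms4a1 and Pax5 below it, summed to between 1966 and 2391 in GP and between 2399 and 2470 in MLPG. Cd79b made up 46.5% to 58.7% of these sums, and 2 of the 4 measured genes lay above 0 and 2 below. The other 7 marker lists were of plasma, T and NK, erythroid, megakaryocyte, macrophage and stem cells and of handling stress. They held 0 called genes without the block (limma), against 0.512% of all features. Of their 36 measured genes, 7 had an unadjusted p under 0.05 (limma), against 14.7% of all features. With the block 2 of the 36 were higher, the stress genes Atf3 and Hspa1a, and 6 were lower, against 1.49% and 2.59% of all features. The lower genes were Alas2, Car1 and Hba-a1 of red cells, Gp1bb and Itga2b of platelets, and Cd3d of T cells. Megakaryocyte sums did not overlap, at 1631 to 2062 in GP and 1099 to 1424 in MLPG, with Gp6, Pf4 and Ppbp below the filter, and Hba-a1 differed by -1.91 (adjusted p = 0.26, and 0.018 with the block, limma). Erythroid sums overlapped, at 13915 to 16209 in GP and 13289 to 14931 in MLPG. Tfrc made up 55.0% to 92.4% of them and differed by 0.19, the only 1 of 6 measured erythroid genes above 0. Cd3d, at 363, 310 and 312 in GP and at 164, 193 and 220 in MLPG, differed by -0.78 (adjusted p = 0.054, and 0.021 with the block, limma). It was called in the fit of every probe (adjusted p = 0.028, limma), against 0.426% of all probes. Of the 4 measured T and NK genes, 3 lay below 0 and 1 above, Nkg7, at 0.27. Nkg7 made up 94.6% to 97.9% of the T and NK sums. Cd3e, Cd3g and Ncr1 lay below the filter and overlapped between the groups. Some macrophage genes stood out on array GP 1. C1qb was at 1384, 192 and 206 in GP and at 174, 131 and 109 in MLPG. C1qc was at 1230, 156 and 158 in GP and at 177, 166 and 160 in MLPG. C1qa and Mrc1 were also highest on GP 1, whereas Adgre1 was lowest there. GP 1 also had the highest Bcl6 and the lowest Zeb2 and Pou2f2. The part of these cell types in the differences of Zeb2, Pou2f2 and Bcl6 was not tested.

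**Figure D3:**
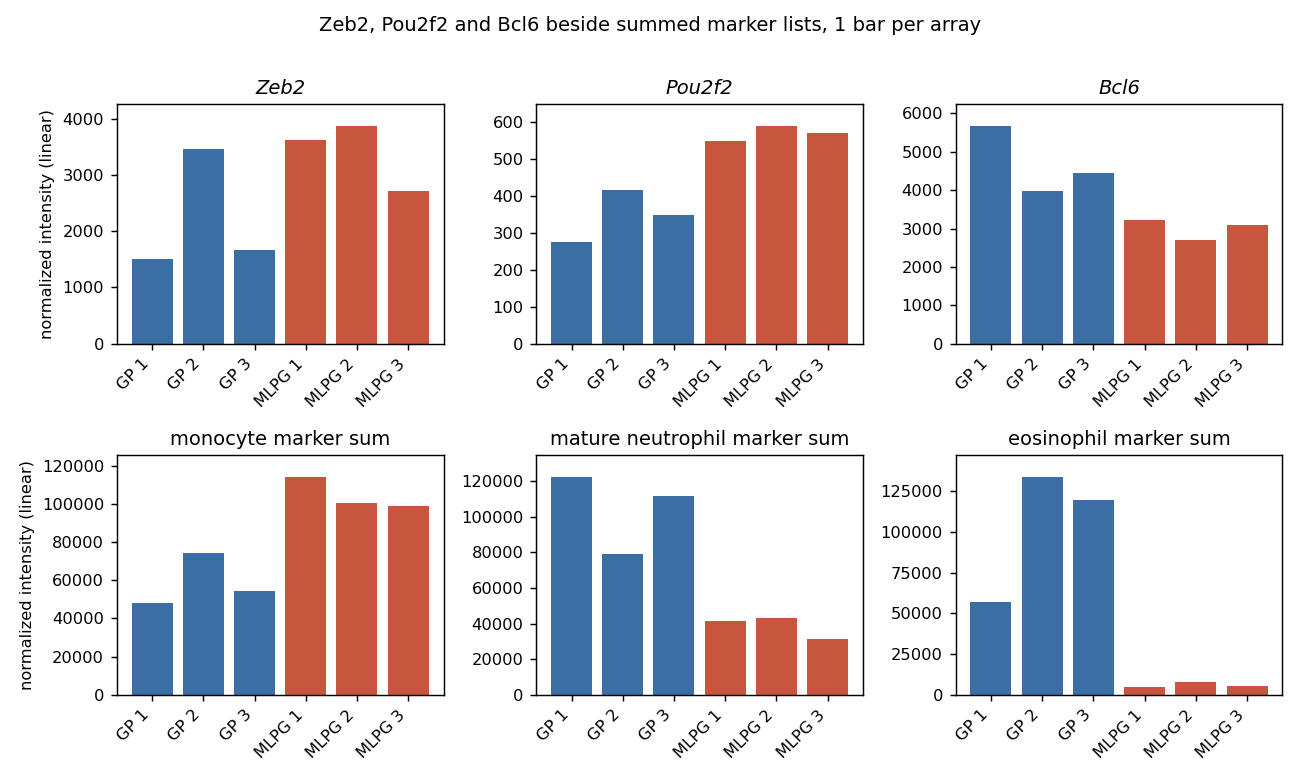
Linear normalized intensity of Zeb2, Pou2f2 and Bcl6 and the summed intensity of monocyte, mature neutrophil and eosinophil marker lists, 1 bar per array, GP in blue and MLPG in red, with every axis starting at 0. GP 2 is the GP array nearest to MLPG for Zeb2 (3465), Pou2f2 (416), Bcl6 (3982), the monocyte sum (74398) and the mature neutrophil sum (78806), but not for the eosinophil sum (133806).

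Genes around the 10 factors were read from 6 lists of partners, paralogs and known targets, which overlap in part. Of 24 measured partners and corepressors, 0 were called (limma), 12 lay above and 12 below 0, and the median was -0.01. At an unadjusted p under 0.05 (limma) 2 of the 24 were counted, against 14.7% of all features, and with the block 1 was lower, against 2.59% of all features. That gene was Satb1, a chromatin organiser that is also a CUT family relative of Cux1, at 14832, 16509 and 10559 in GP and at 9404, 11679 and 7384 in MLPG, a log2 difference of -0.56 (adjusted p = 0.28, and 0.018 with the block, limma). Its groups overlapped, since MLPG 2 lay above GP 3, but each MLPG array lay below the GP array of its number. Pias3, Tle3 and the coactivator gene Crebbp, the next by p, differed by -0.40, -0.26 and -0.33 and were not called with or without the block.

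Of 14 measured paralogs, 0 were called (limma), and 4 lay lower and 0 higher with an unadjusted p under 0.05, against 7.42% and 7.23% of all features, with a median of -0.04. With the block 2 of the 14 were lower, Satb1 and Zeb1, against 2.59% of all features. Zeb1, the close relative of Zeb2, was at 4547, 4520 and 4612 in GP and at 3121, 3651 and 2986 in MLPG. Its MLPG arrays all lay below the GP arrays, a log2 difference of -0.49 (adjusted p = 0.090, and 0.038 with the block, limma), opposite in sign to the 0.71 of Zeb2. Gfi1b, the relative of Gfi1 in erythroid and platelet precursors, was at 224, 295 and 265 in GP and at 201, 197 and 170 in MLPG. The difference of -0.46 did not pass (adjusted p = 0.18, and 0.073 with the block, limma). Megakaryocyte sums and Hba-a1 were also lower in MLPG, while erythroid sums overlapped, and their part in the Gfi1b values was not tested. Ets1, at -0.35, did not pass either, with 0.28 and 0.094.

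Of 27 measured genes known to be driven by PU.1, 0 were called (limma), and the median was -0.02. At an unadjusted p under 0.05 (limma), 11.1% of the list lay above GP (3 genes) and 25.9% below (7 genes), against 7.23% and 7.42% of all features. With the block 3 were higher, Csf1r, Ly86 and Irf8, and 2 were lower, Itgam and Tyrobp, against 1.49% and 2.59% of all features. The 3 higher genes are also on the monocyte marker list. Csf1r, which encodes the receptor for M-CSF, was at 806, 1419 and 834 in GP and at 2106, 2256 and 1983 in MLPG, and Ly86, a surface protein of monocytes and B cells, was at 785, 2936 and 1192 in GP and at 4895, 6131 and 3913 in MLPG. In both genes the groups did not overlap and GP 2 was the highest GP array, as in Zeb2. Tyrobp, which encodes the adaptor DAP12, was at 16716, 13399 and 13345 in GP and at 10073, 10816 and 9805 in MLPG, a log2 difference of -0.49 (adjusted p = 0.12, and 0.047 with the block, limma), and Itgam, the integrin chain CD11b, differed by -0.63. Genes driven by PU.1 thus lay on both sides of 0, 12 above and 15 below, while Spi1 itself overlapped between the groups.

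Of 22 measured genes known to be repressed by Gfi1, 0 were called (limma), and the median was -0.11. At an unadjusted p under 0.05 (limma), 18.2% lay above GP and 18.2% below (4 genes each), against 7.23% and 7.42% of all features. With the block 3 were higher and 0 lower, namely Csf1r, the monocyte factor gene Irf8 and the E2F repressor gene E2f6, against 1.49% and 2.59% of all features. Csf1r and Irf8 are also on the monocyte marker list. Irf8 differed by 1.49 and E2f6 by 0.41 (adjusted p = 0.18 and 0.080, and 0.021 and 0.042 with the block, limma). Spi1 is itself on this list, and 14 of the 22 lay below 0.

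Of 21 measured genes known to be activated by Myb, 0 were higher and 1 was lower (limma), against 0.142% and 0.369% of all features, and the median was 0.02. The lower gene was Gata2, a factor of stem cells, mast cells and basophils, at 440, 1012 and 642 in GP and at 203, 208 and 167 in MLPG, a log2 difference of -1.78 (adjusted p = 0.038, and 0.0063 with the block, limma). The call of Gata2 was lost without GP 3 (-1.80, adjusted p = 0.13, limma) or without any 1 of the MLPG arrays (-1.84 to -1.68, adjusted p = 0.10 to 0.16, limma), and with the block it was lost without number 3 (-1.70, adjusted p = 0.14, limma). The eosinophil sums, and the basophil and mast cell sums made up mostly of Hdc, were also higher in GP than in MLPG. Gata2 is itself on the basophil and mast cell list and made up 0.76% to 2.33% of its sums. Cdk1, Cebpa and Hspa8, the next by p, differed by 0.26, 0.16 and 0.20 and were not called with or without the block. Of 18 measured genes known to be repressed by Bcl6, 0 were called (limma), and the median was -0.12, with 10 of 18 below 0. At an unadjusted p under 0.05 (limma), 1 lay above and 1 below GP, 5.56% each against 7.23% and 7.42% of all features. With the block 1 of the 18 was higher, against 1.49% of all features, the chemokine gene Ccl3, at 2691, 4345 and 2888 in GP and at 4839, 8548 and 3592 in MLPG, a difference of 0.71 (adjusted p = 0.34, and 0.031 with the block, limma), with GP 2 above MLPG 3. Its highest array, MLPG 2, was also that of the handling stress gene Atf3, at 443, 1026 and 563 in GP and at 1567, 3445 and 748 in MLPG, whose part in the Ccl3 values was not tested. Arid3a, Pdcd2 and Cdkn1b differed by -0.30, 0.30 and -0.33 and were not called with or without the block.

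**Figure D4:**
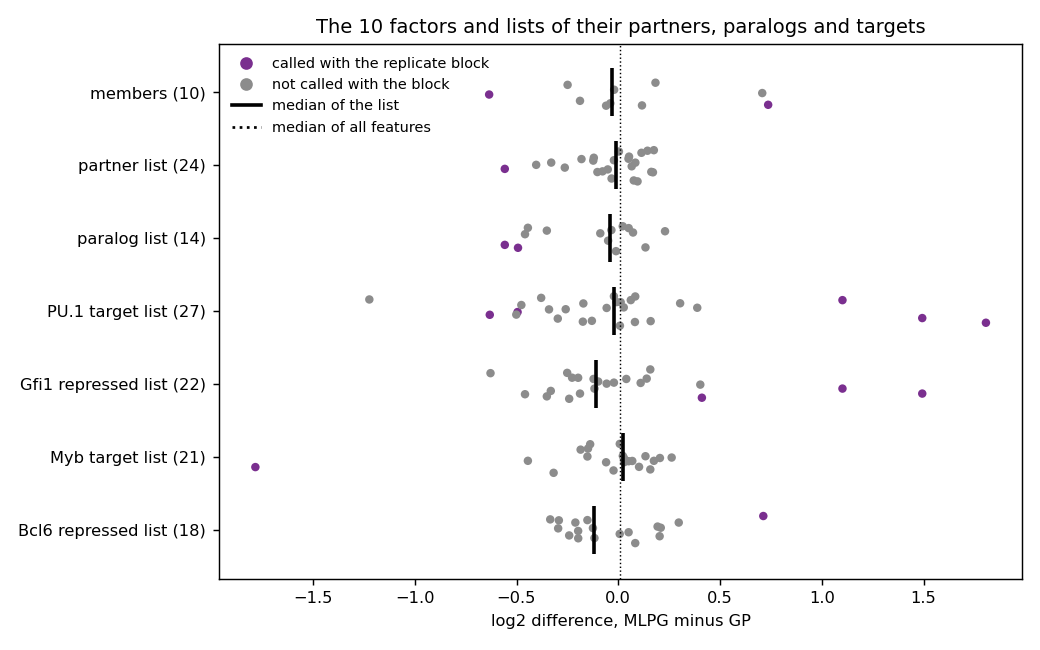
Log2 difference, MLPG minus GP, of the 10 members and of the measured genes of each list, 1 point per gene, with the number of genes in parentheses; purple points were called with the replicate block, black bars are list medians and the dotted line is the median of all features, 0.01. List medians lie between -0.12 and 0.02, and the points farthest out are Ly86 (1.81) and Irf8 (1.49) on the right and Gata2 (-1.78) on the left.

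For the 3 members that spanned at least 1 log2 unit over the 6 arrays, the named genes with the most similar profile were found by the root mean square difference of centred log2 values over 6 arrays. Those of Bcl6 were Lmtk2 (0.037), Arhgap25 (0.052) and Ccpg1 (0.065), which differed between the groups by -0.59, -0.60 and -0.62. Those of Zeb2 were less close, Snx30 (0.109), Hmgn3 (0.120) and Cyp27a1 (0.129), and each had GP 2 as its highest GP array, for example Hmgn3 at 319, 929 and 410 in GP and at 956, 997 and 726 in MLPG. Those of Pou2f2 were Emb (0.066), Pelo (0.093) and Endod1 (0.094), which differed by 0.71, 0.60 and 0.66. Over 6 arrays such likeness is a description of these samples.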

How the data were processed

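The authors deposited normalized intensity values per probe on a linear scale. The submitters' processing notes name GenomeStudio, with no version, and how the authors normalized or corrected background is not given in the sources used here. All 6 columns shared their mean (1501), median (179.3), lowest (88.2) and highest (71674) intensity, which is what quantile normalization leaves, and background remained, which compresses differences of dim probes. A second deposited table has 12 columns headed by numbers that match no sample's labels, and these were not used. Symbols came from the platform annotation (34885 probes with 1 symbol, 18 with several, 10378 with none). Probes with a mean log2 value above the median of all probes, 7.48, were kept (22640), and the brightest stood for its gene. MLPG and GP were compared with limma 3.58.1 in R 4.3.3 (lmFit, eBayes, log2 values, all 6 arrays), checked on simulated data, and called at an adjusted p under 0.05. A second fit took every probe. Alternatives, given in the closing section, changed the normalization, background, filter, choice of probe, variance model, array weights or block, or left out an array. Named genes were all members, and in each list called genes and the 4 with the smallest p. The members, lists and tests were chosen with earlier results of these data known. Deviations from the group means correlated between same-numbered arrays at 0.38, 0.30 and 0.47, above the minimum of 0.1, so values with the replicate number as a block are given; the pairing was read from these arrays and not from the labels. The number of arrays limits the precision.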

Additional observations from a re-analysis of the deposited data

How the results depend on the processing

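No member was called with all 6 arrays and no block, nor under cyclic loess normalization, normexp background, either filter on dim probes, the mean of a gene's probes or an intensity trend. Array weights called 1 (Pou2f2), the replicate block 2, and leaving out single arrays 0 to 3. The 3 were called without GP 2, where 348 of all features were called. The block without 1 replicate number, added after seeing the data, called 2, 3 and 0 members and 465, 2056 and 6 features without numbers 1, 2 and 3. Of all features, 79 were called, 146 without the filter, 220 with array weights, 630 with the block, and 2 to 348 without 1 array. Of the 22 member probes, 0 were called, 1 with array weights, 4 with the block, and 0 to 4 without 1 array. With the block, 1 partner, 2 paralogs, 5 PU.1 targets, 3 Gfi1 targets and 1 Bcl6 target were called. With array weights these were 1 paralog, 3 PU.1 targets and 2 Gfi1 targets, and 1 gene, Csf1r, was called in the latter 2 lists without the filter or with the mean of probes. Without 1 array, PU.1 targets ranged from 0 to 5, Gfi1 targets from 0 to 3 and Myb targets from 0 to 1. The differences of Bcl6 (-0.75 to -0.49), Zeb2 (0.43 to 1.08) and Pou2f2 (0.58 to 0.88) kept their sign under all 17 alternatives, as did those of Spi1, Runx1, Etv6 and Lmo4. Without 1 array the differences lay between -0.23 and 0.18 for Gfi1, -0.20 and 0.21 for Myb and -0.14 and 0.023 for Cux1, with the sign turned for Gfi1 without MLPG 2 (0.18), for Myb without GP 1 (0.066), GP 3 (0.075) or MLPG 2 (0.21), and for Cux1 without GP 1 (0.023) or MLPG 3 (0.017). The sign also turned for Myb with the mean of probes (0.039), and in the block for Gfi1 and Myb without number 2 (0.17 and 0.028) and for Cux1 without number 3 (0.053). The cause was not tested.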
